A study of Mus musculus with 4 samples.

Results

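The 10 genes described here encode enzymes of glycolysis and the carriers that bring glucose in and take lactate out: Slc2a1, Hk1, Hk2, Pfkl, Pfkp, Aldoa, Pgk1, Eno1, Ldha and Slc16a3. Their probes were found by the RefSeq transcript that the array files name for each spot, which gave 15 probes for the 10 genes, out of 55619 probes for 37042 genes or unnamed transcripts. Slc16a3, Hk1 and Pfkp had 2 probes each, Ldha had 3, and the other 6 genes had 1. Where a gene had several, the brightest over the 4 arrays stands for it below and the others are given beside it. With TNF, all 10 genes gave a higher signal in Rela fl/fl chondrocytes (median log2 difference 0.41), as did 51.8% of all genes tested, and none reached 2-fold, as 2.39% of all genes did.

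Glycolysis splits glucose into pyruvate in the cytosol and yields ATP without oxygen. Cartilage has no blood vessels, and chondrocytes live at low oxygen and make most of their ATP by glycolysis, sending the pyruvate out as lactate. Transport across the membrane, the hexokinase step and the phosphofructokinase step are the points at which the flow is mainly set, and genes of the whole pathway are known targets of the hypoxia-inducible factor HIF-1.

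The cells were primary chondrocytes of C57BL/6J mice aged 6 days, cultured for 3 days with 10 ng ml−1 TNF or without it. Mice of both genotypes carried floxed Rela alleles (Rela fl/fl). The cKO mice carried Prrx1-Cre in addition, a recombinase driven by a promoter of limb bud mesenchyme, meant to remove Rela, the p65 subunit of NF-κB, in cells of that origin. RNA of each of the 4 combinations of genotype and treatment was hybridised to 1 array, so there are no replicates, no test was run and no p-value is given.

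The targeted gene goes against its label. The Rela signal was 28.3 without TNF and 34.7 with TNF in control cells, and it was 33.9 and 40.2 on the cKO-labelled arrays, higher rather than lower by 0.26 and 0.21 on the log2 scale. Whether the Rela probe lies in the deleted part was not tested, and the arrays are therefore called cKO-labelled throughout, and the cells without Prrx1-Cre are called control cells. Of 8 genes known to respond to TNF through NF-κB, 8 were higher with TNF by 1.21-fold or more in control cells. On the cKO-labelled arrays 6 were, and the shares of all genes tested were 11.5% and 14.0%. With TNF present, 7 of the 8 were lower by as much on the cKO-labelled array than in control cells, where 12.1% of all genes were. Ccl2 had signals of 8.23 there and 29.7 in control cells. In control cells the TNF difference was 1.51 for Nfkbia, 1.78 for Tnfaip3, 3.01 for Cxcl1 and 1.02 for Relb, and Il6 was not well above background without TNF and had a signal of 0.39 with it. Icam1 was lower on the cKO-labelled array with TNF by -1.39. All 9 chondrocyte markers, Col2a1, Acan and Sox9 among them, were well above background on all 4 arrays. They were lower on the cKO-labelled array without TNF by a median of 0.52, with Matn1 lower by the most at -1.85. With TNF in control cells, where the 10 glycolysis genes were higher, the chondrocyte markers had a median of -0.22. Of the 9, 1 was above 0 and 4 were lower by 1.21-fold or more, where 51.8% and 12.2% of all genes were. On the cKO-labelled arrays the median of these markers was 0.05. The 6 fibroblast markers, Col1a1 among them, were above background on all 4 arrays too. Their median TNF difference in control cells was 0.06, with Pdgfra at 0.75 and Thy1 at -0.69, and their median genotype difference was -0.21 without TNF and -0.25 with TNF. Of 5 macrophage or leukocyte markers on the array, Ptprc was not well above background on any array and the other 4 were on all of them. Their summed signal ran from 34.9 to 43.8, most of it from the brightest Itgam probe (31.8 to 40.3). Csf1r gave 2.79 to 3.05, Lyz2 0.13 to 0.66 and Adgre1 0.05 to 0.58. The brighter of the 2 Adgre1 probes was higher on the cKO-labelled array without TNF by 2.87, and it lay in a patch on 1 array. The 3 Itgam probes disagreed, from -2.93 to -0.11 with TNF in control cells, and Lyz2 gave -1.42 with TNF in control cells. Of the endothelial markers, Kdr (17.5 to 20.5) and Pecam1 were well above background on all 4 arrays and Cdh5 on none. Of 4 muscle markers, Acta1 (1.70 to 2.65) was and Myod1, Myog and Ckm were not on any array. Of 3 erythroid markers, Hba-a1, with signals under 0.09, was, and Hbb-bs and Alas2 were not. The part of these markers in the glycolysis values was not tested. In RNA of whole cultures, fewer cells of a type and less RNA per cell cannot be told apart.

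Signals are intensities divided by the 75th percentile of their array, so that a signal of 1 is that percentile, and differences are on the log2 scale. Each of the 15 glycolysis probes had 1 spot. All 15 were well above background on all 4 arrays, none was saturated and none was flagged as an outlier. As a yardstick, probes with 10 spots, of which 173 to 215 on an array were used, gave the technical spread of differences, 0.138 over all such probes and 0.0807 over those with a signal of 2 or more. A difference of 2 technical spreads is 0.276, or 1.21-fold, and 0.161 by the spread of bright probes, which all 10 brightest probes are. This yardstick holds spot-to-spot error only and leaves out the spread between cultures, which these arrays do not measure.

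TNF in control cells came with higher signals at both membrane steps. Slc16a3, the monocarboxylate carrier MCT4 that exports lactate, gave 27.1 without TNF and 46.6 with TNF in control cells, and 27.4 and 39.3 on the cKO-labelled arrays. The signals without TNF lay next to each other, and the array of control cells with TNF stood above the other 3. The log2 difference with TNF was 0.78 in control cells and 0.52 on the cKO-labelled arrays, and the other Slc16a3 probe gave 0.74 and 0.47. Slc16a3 was the single gene of the 10 past 1.5-fold in control cells, where 4.37% of all genes tested were higher by that much, and 3.02% of them were higher by more than Slc16a3. Slc2a1, the glucose carrier GLUT1, gave 15.5 and 21.2 in control cells without and with TNF and 15.5 and 20.8 on the cKO-labelled arrays. Its signal followed TNF and not the genotype label, with differences of 0.46 and 0.42.

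**Figure D1:**
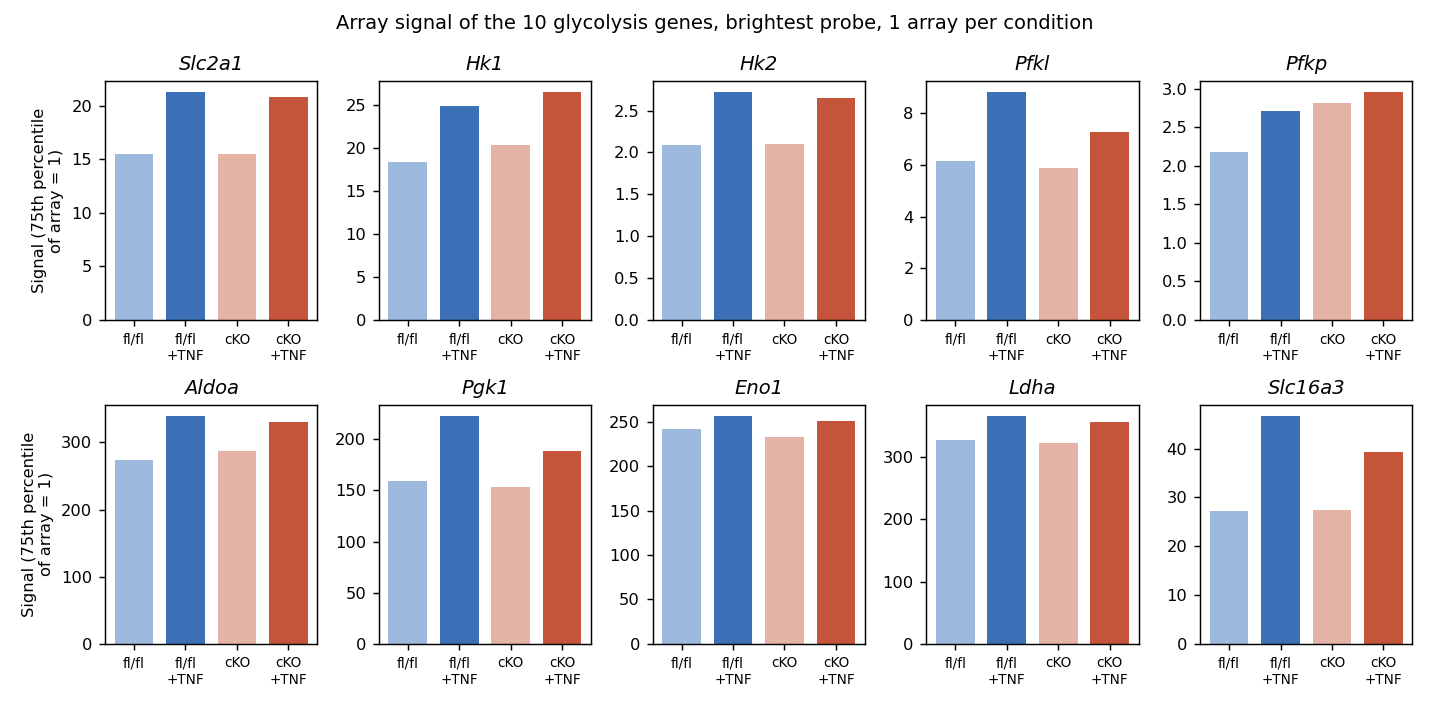
Signal of the 10 glycolysis genes on the 4 arrays, 1 panel per gene and 1 bar per array, with the 75th percentile of each array set to 1 and each vertical axis starting at 0. Blue bars are control cells and red bars the cKO-labelled arrays, the darker bar of each pair with TNF. In every panel the darker bar is the taller of its pair, and within control cells the log2 difference is largest for Slc16a3 (27.1 and 46.6) and smallest for Eno1 (242 and 256).

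The hexokinases trap glucose in the cell as glucose 6-phosphate. Hk1 gave 18.3 without TNF and 24.9 with it in control cells, and 20.4 and 26.5 on the cKO-labelled arrays. Hk2, the isoform known to be inducible, gave 2.09 and 2.72, and then 2.10 and 2.65. Both genes were higher on both arrays with TNF than on both arrays without it. For Hk1 the differences were 0.44 in control cells and 0.38 on the cKO-labelled arrays, and for Hk2 they were 0.38 and 0.34. The dimmer Hk1 probe gave a like difference in control cells, 0.47, and a smaller one on the cKO-labelled arrays, 0.11.

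Phosphofructokinase commits the sugar to glycolysis, and its liver-type and platelet-type subunits behaved unlike each other between the genotype labels. Pfkl gave 6.16 and 8.82 in control cells without and with TNF, and 5.90 and 7.29 on the cKO-labelled arrays. Pfkp gave 2.18 and 2.71, and 2.81 and 2.95. The Pfkl signal was highest in control cells with TNF, while the Pfkp signal was lowest in control cells without TNF and lay within a narrow range on the other 3 arrays. The TNF differences were 0.52 and 0.30 for Pfkl. For Pfkp they were 0.31 and 0.07, and its dimmer probe gave 0.38 and 0.21.

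Further down the pathway, TNF differences ranged from the size seen at the hexokinases to values near 0. Aldoa, the aldolase that splits fructose 1,6-bisphosphate, gave 273 and 339 in control cells and 287 and 331 on the cKO-labelled arrays, differences of 0.31 and 0.21. Pgk1, which makes the first ATP of the pathway, gave 159 and 223, and 153 and 188, differences of 0.49 and 0.30. Eno1, the enolase of most tissues, gave 242 and 256, and 232 and 251. Its differences, 0.08 and 0.11, lay within 1 technical spread over all probes and were the smallest of the 10 in control cells. The array also carries 2 probes for Eno1b, a near-identical copy of Eno1, and both were bright, with TNF differences of 0.19 and 0.30 in control cells, so signal may be shared between these genes.

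Ldha, the lactate dehydrogenase subunit that turns pyruvate into lactate, depended on the probe. Its brightest probe gave 327 and 366 in control cells and 322 and 356 on the cKO-labelled arrays, differences of 0.16 and 0.14. The other Ldha probes gave 0.48 and 0.49 in control cells, and 0.43 and 0.18 on the cKO-labelled arrays. The brightest probe thus had the smallest TNF difference of the 3 in both genotypes. Gapdh, the dehydrogenase downstream of aldolase and often a reference gene, showed the same order in control cells, where its brightest probe of 7 gave 0.19 and the other 6 gave 0.28 to 0.53. None of these probes was saturated by the scanner's flag, and why probes of 1 gene differ was not tested. The brightest Gapdh probe lay in a patch on 1 array, a patch being a cluster of spots that are bright there alone, and patches held 1.04% to 10.7% of the spots of an array. The brightest Ldha probe also lay in such a patch (in control cells with TNF and on the cKO-labelled array without TNF), as did Slc2a1 and Hk2 in control cells with TNF and another Ldha probe on the cKO-labelled array without TNF. The 11 probes outside such patches, for 8 genes, were all higher with TNF in control cells, by a median of 0.47 and from 0.08 to 0.78.

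In control cells, all 10 genes and all 15 probes were above 0, where 51.8% of the 23408 genes tested were higher with TNF by any amount. Of the 10, 8 were higher by 2 technical spreads or more, where 11.5% of all genes were and 5.57% of the 8225 genes at least as bright as the dimmest of the 10. By the spread of bright probes it was 9 of 10, all but Eno1, where 13.5% of the genes that bright were. Ldha (0.1619) lay next to that limit (0.1615). Without Ldha the count was 8 under cyclic loess normalization, under median centring and in the authors' value table. The median was 0.41, and the median of all genes tested was 0.01. None was 2-fold higher, a size that 2.39% of all genes reached. The differences shared a direction and were modest in size, from 0.08 to 0.78.

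On the cKO-labelled arrays the differences with TNF were smaller. All 10 genes and 15 probes were again above 0, from 0.07 to 0.52 with a median of 0.30. The background was higher here, since 60.4% of 24903 genes were above 0 with a median of 0.06, and 80.9% of the genes at least as bright as the dimmest of the 10 were, with a median of 0.12. The shared direction alone is thus close to that of other bright genes. By 2 technical spreads or more, 6 of 10 were higher (Slc2a1, Hk1, Hk2, Pfkl, Pgk1 and Slc16a3), where 14.0% of all genes were and 9.46% of the bright ones. By the spread of bright probes, 7 were higher, where 35.5% of the bright genes were. That count was 6 without scaling and in the authors' value table, and 5 under quantile and cyclic loess normalization. It was 8 under normexp background and with the mean over probes. None was 2-fold higher, where 1.04% of all genes were. The share of all genes above 0 was 40.9% without scaling. The number past 2 technical spreads also moved with the scaling: without scaling and in the authors' value table it was 2 of 10 (Slc2a1 and Slc16a3), where 8.19% and 7.91% of all genes were, and it was 3 of 10, with Hk2 added, under quantile and cyclic loess normalization, where 20.1% and 12.6% were. Under these 4 settings the median of the 10 was 0.16 to 0.20. Under other scalings 8 to 10 of the 10 stayed above 0 on these arrays, and the exceptions were Pfkp, Eno1 and Ldha.

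**Figure D2:**
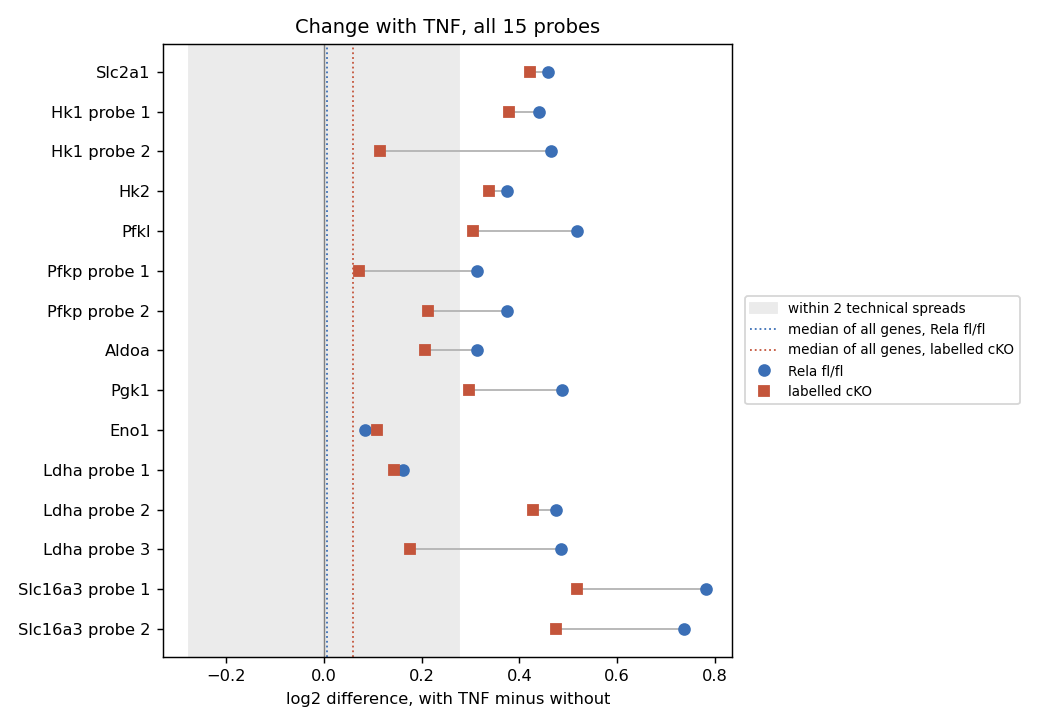
Log2 difference with TNF minus without, for the 15 probes of the 10 genes, in control cells (blue circles) and on the cKO-labelled arrays (red squares), with probes of 1 gene numbered from the brightest and 1 array per condition. The grey band holds differences within 2 technical spreads (0.276) and the dotted lines are the medians of all genes tested, 0.01 and 0.06; the circle lies to the right of the square for every probe but that of Eno1.

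**Figure D3:**
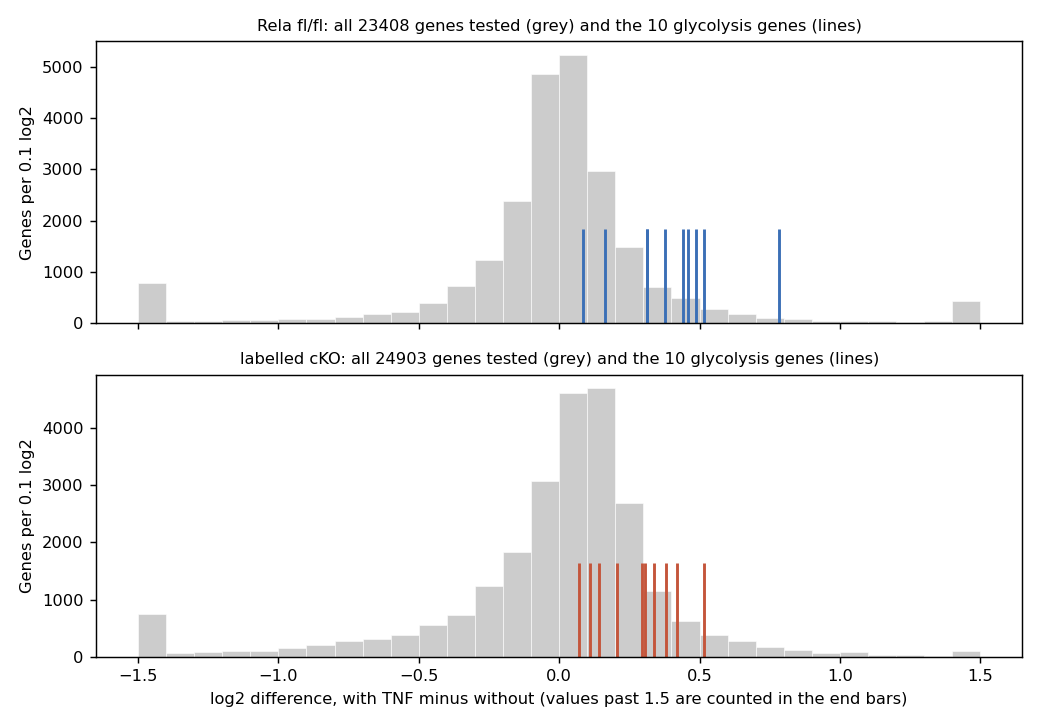
Histograms of the log2 difference with TNF of all genes tested, in bins of 0.1, in control cells (23408 genes, upper panel) and on the cKO-labelled arrays (24903 genes, lower panel), with differences past 1.5 counted in the end bars. Coloured lines mark the 10 glycolysis genes, which lie from 0.08 to 0.78 in the upper panel and from 0.07 to 0.52 in the lower, all to the right of the median of all genes.

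Because the genes were higher together, their promoters are shown for Slc2a1, Pfkl and Pgk1, which stand for transport, the committed step and the first ATP, and whose windows lie wholly before the first annotated start of the gene. Each is the 250 bases before a transcript start in RefSeq (GRCm38.p6), written 5′ to 3′ on the strand of the gene. Capitals mark ACGTG and GCGTG on either strand (CACGT and CACGC when read on the strand of the gene), the core letters of sites that hypoxia-inducible factors are known to bind.
Slc2a1, chr4:119108495-119108744, plus strand: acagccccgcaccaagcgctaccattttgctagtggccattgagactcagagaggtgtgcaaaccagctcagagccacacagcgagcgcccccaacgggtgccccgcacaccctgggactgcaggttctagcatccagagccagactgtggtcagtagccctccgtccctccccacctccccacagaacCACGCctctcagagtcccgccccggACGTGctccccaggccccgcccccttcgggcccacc
Pfkl, chr10:78009808-78010057, minus strand: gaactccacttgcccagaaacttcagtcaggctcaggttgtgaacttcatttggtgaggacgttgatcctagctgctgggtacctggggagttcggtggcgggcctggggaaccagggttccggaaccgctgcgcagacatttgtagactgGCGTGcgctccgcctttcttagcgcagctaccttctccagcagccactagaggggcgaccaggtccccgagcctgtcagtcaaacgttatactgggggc
Pgk1, chrX:106186850-106187099, plus strand: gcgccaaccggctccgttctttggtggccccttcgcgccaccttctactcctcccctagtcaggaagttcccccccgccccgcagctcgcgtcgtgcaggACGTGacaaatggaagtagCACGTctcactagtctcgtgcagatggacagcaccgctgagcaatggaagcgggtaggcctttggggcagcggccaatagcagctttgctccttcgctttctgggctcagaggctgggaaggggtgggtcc
For Slc16a3, which had the largest TNF difference, a stretch of 28 bases just before the start in the table, which is not the first annotated start of the gene, carries ACGTG 2 times.
Slc16a3, chr11:120949037-120949064, plus strand: gtgACGTGcgcgggggACGTGccgcgcg

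All 10 genes matched the promoter table, with 16 windows in all because the table lists more than 1 start for 4 of them, and some of these windows overlap. ACGTG on either strand was in 7 of the 16 windows, of 6 genes, and in 16.6% of all 32851 windows of the same length. GCGTG was in 8 windows, of 6 genes, and in 28.2% of all windows. Counted together, at least 1 of these letters was in 14 of 16 windows and in all 10 genes, against 38.6% of all windows, and the E-box CACGTG, which contains ACGTG, was in 1 window, of Ldha, and in 6.02% of all. GGG and CC with any 5 bases between them, a loose form of the site that NF-κB binds, was in 10 of 16 windows, of 8 genes, and in 45.8% of all windows, and in Slc16a3 one such match overlaps the ACGTG nearest to the start. The windows of the 10 genes were richer in G and C, with a median of 64.6% against 52.4% over all windows. A match of letters is not a bound site, and none of these counts was tested.

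Without TNF, the genotype labels differed little for these genes. The median difference, labelled cKO minus Rela fl/fl, was 0.00, with 6 genes above 0 and 4 below, where 51.4% of 24277 genes were above 0. By the brightest probes, Pfkp was the exception: it was higher on the cKO-labelled array by 0.36, with 0.23 at its dimmer probe. It was the single gene of the 10 higher by 2 technical spreads, as 16.9% of all genes were, and also by the spread of bright probes, as 12.8% of the bright genes were. An Ldha probe that is not the brightest gave -0.22, past 2 technical spreads of bright probes, and it lay in a patch on the cKO-labelled array. None was 2-fold higher or lower, where 3.53% and 4.38% of all genes were. Slc2a1 (0.01), Hk2 (0.00) and Slc16a3 (0.02) had nearly equal signals on both arrays without TNF.

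With TNF, 8 of the 10 genes were lower on the cKO-labelled array than in control cells, where 39.4% of 24513 genes were lower. The median was -0.04, against 0.06 for all genes, and the values ran from -0.27 to 0.12. Of the brightest probes, those of Pfkl (-0.27), Slc16a3 (-0.25) and Pgk1 (-0.24) gave the lowest values and had been near 0 without TNF. The brightest Ldha probe gave -0.04 and the other Ldha probes -0.27 and -0.33. Of these other probes, the first had been at -0.22 without TNF already and the second at -0.02. Hk1 (0.09) and Pfkp (0.12) were the genes above 0, and the dimmer Hk1 probe gave -0.25. None of the 10 was lower by 2 technical spreads over all probes, where 12.1% of all genes were, but Pfkl lay next to that limit. Without scaling, under quantile and cyclic loess normalization and in the authors' value table, 3 of 10 were (Pfkl, Pgk1 and Slc16a3), where 11.7% to 15.4% of all genes were. By the spread of bright probes, Pfkl, Pgk1 and Slc16a3 were, 3 of 10, where 9.30% of the bright genes were. None was 2-fold higher (1.17% of all genes) or lower (3.19%). The median was -0.14 for the 8 genes measured with patches left out and -0.24 over the 11 probes outside patches. The share of all genes above 0 in this comparison was 60.6%, and 48.6% without scaling.

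**Figure D4:**
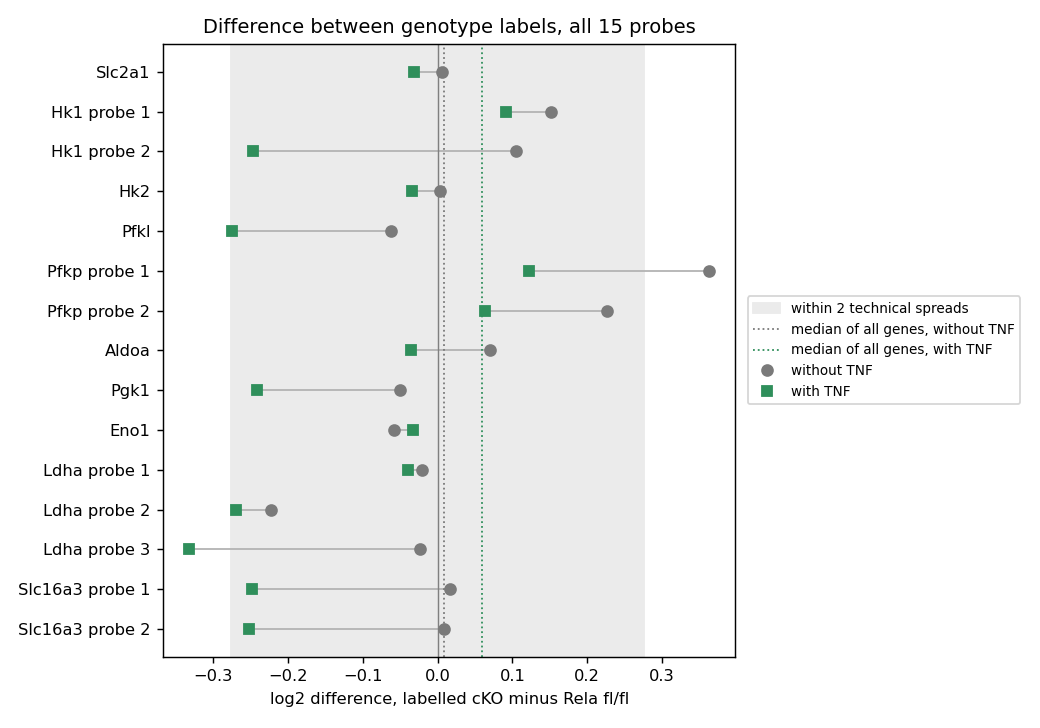
Log2 difference labelled cKO minus Rela fl/fl for the 15 probes, without TNF (grey circles) and with TNF (green squares), 1 array per condition. The grey band holds differences within 2 technical spreads (0.276) and the dotted lines are the medians of all genes tested, 0.01 and 0.06. The probe of Pfkp numbered 1 lies outside the band without TNF (0.36) and the dimmest probe of Ldha outside it with TNF (-0.33), and for 14 of 15 probes the square lies to the left of the circle.

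The difference between the TNF differences, labelled cKO minus Rela fl/fl, was below 0 for 9 of 10 genes and 14 of 15 probes, where 41.6% of 25955 genes were below 0. The median was -0.08 for the 10 genes and 0.06 for all genes, and 71.3% of the genes at least as bright as the dimmest of the 10 were above 0. Slc16a3 gave -0.27, Pfkp -0.24, Pfkl -0.21 and Pgk1 -0.19. Values near 0 came from Slc2a1 (-0.04), Hk2 (-0.04) and Eno1 (0.02). Hk1 and Ldha depended on the probe, with -0.06 and -0.35 for the Hk1 probes and -0.02, -0.05 and -0.31 for the Ldha probes. The technical spread of this quantity was 0.195 over all probes, and no single gene passed 2 such spreads. It was 0.114 over bright probes, and 2 of 10 genes, Slc16a3 and Pfkp, were lower by 2 of those, where 6.32% of the bright genes were. This count was 4 without scaling and in the authors' value table, with Pfkl and Pgk1 added, and 5 under quantile and cyclic loess normalization, with Aldoa too. It was 2 under normexp background, Pgk1 and Slc16a3, and 1 with the mean over probes, Slc16a3. The share of 6.32% belongs to the main setting only. The difference between the TNF differences uses all 4 arrays. The share of all genes above 0 depended on the scaling, at 58.4% here and 42.1% without scaling, while 9 or 10 of the 10 genes were below 0 in both.

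Of 13 further glycolysis genes, for other steps or for other isoforms of the same steps, 11 were well above background with or without TNF in control cells, and 8 of the 11 were above 0, 4 of them by 2 technical spreads, with 1 lower and a median of 0.26, where 51.8% of all genes were above 0, 11.5% higher and 12.2% lower by as much. On the cKO-labelled arrays 10 of the 11 were above 0, 2 of them by 2 technical spreads, with a median of 0.16. There, 60.4% of all genes were above 0 and 14.0% higher by as much. Gpi1, the isomerase after hexokinase, was higher by 0.40 in control cells and 0.30 on the cKO-labelled arrays, and Tpi1, the triose phosphate isomerase, by 0.48 and 0.30. Pgam1, the mutase before enolase, gave 0.27 and 0.21, and Pkm, the pyruvate kinase that closes the pathway, 0.39 and 0.16. The genes not above 0 were isoforms best known from other tissues, Pfkm (0.00) and Eno3 (-0.35) from muscle and Ldhb (-0.03) from heart. They were not dim here. Pfkm, with signals of 9.02 to 9.66, was brighter than Pfkl and Pfkp on all 4 arrays, and its probe lay in a patch on 3 arrays. Ldhb had signals of 19.7 to 28.7 and Eno3 of 2.74 to 3.96. Aldoc, the brain-type aldolase, gave 0.31 with TNF in control cells, and Eno2, the neuronal enolase, gave 0.26. Between the genotype labels, Ldhb and Aldoc were the genes of this list that were lower by 2 technical spreads both without TNF (-0.54 and -0.49), where 12.4% of all genes were, and with TNF (-0.48 and -0.66), where 12.1% were. Higher by as much were Pkm without TNF (0.31) and Eno3 with TNF (0.34), where 16.9% and 17.4% of all genes were.

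By their brightest probes, none of the 15 citrate cycle genes and none of the 7 pentose phosphate genes passed 2 technical spreads with TNF in either genotype. Of the genes at least as bright as the dimmest of the 10, 5.57% were higher by as much in control cells and 9.46% on the cKO-labelled arrays. With lists this short, a count of none lies near those shares. Mdh2 on the cKO-labelled arrays (0.2756) lay next to the limit (0.2764). By the spread of bright probes, Pgd (0.24) was higher and Sdhb (-0.17) lower in control cells, where 13.5% and 6.58% of the bright genes were. Mdh2 (0.28), Taldo1 (0.27), Pgd (0.22) and Pgls (0.16) were higher on the cKO-labelled arrays, where 35.5% of the bright genes were. Of the 3 Ogdh probes, 1 that is not the brightest gave 1.05 in control cells. The medians of these lists were 0.04 and 0.00 in control cells and 0.07 and 0.15 on the cKO-labelled arrays. Of 8 other sugar and lactate carriers on the array, 1 was higher by 2 technical spreads in control cells, a share near the 11.5% of all genes. It was Slc2a6, a glucose carrier of the lysosome membrane, which went from a signal of 0.40 to 0.97 in control cells (1.26) and from 0.43 to 0.69 on the cKO-labelled arrays (0.70). Its other probe gave 0.62 and 0.36. Slc2a3, the glucose carrier GLUT3, gave 0.23 and 0.17, and Slc16a1, the monocarboxylate carrier MCT1, gave -0.11 and -0.16. Pfkfb3, which makes the activator of phosphofructokinase, had 0.51 and 0.07, but its dimmer probe gave -1.31 in control cells, so its direction is not settled.

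**Figure D5:**
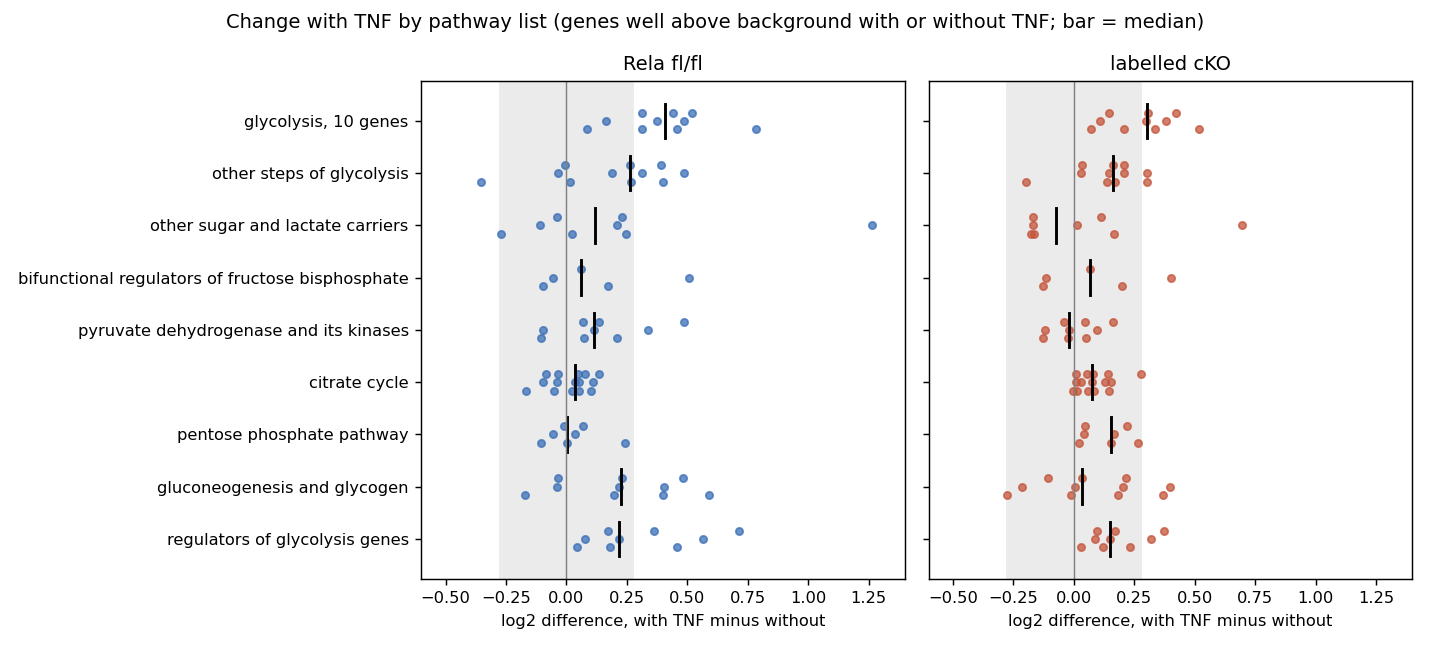
Log2 difference with TNF for the genes of 9 pathway lists that were well above background with or without TNF, in control cells (left) and on the cKO-labelled arrays (right), with 1 point per gene, a black bar for the median of a list and a grey band within 2 technical spreads (0.276). In control cells the median of the 10 glycolysis genes is 0.41 and that of the 13 further glycolysis genes (labelled other steps, isoforms included) with 11 measured is 0.26, while the citrate cycle lies at 0.04 and the pentose phosphate pathway at 0.00. On the cKO-labelled arrays the same medians, in that order, are 0.30, 0.16, 0.07 and 0.15.

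Among 9 regulators of glycolysis genes, all 9 were above 0 in control cells with a median of 0.22, and 4 were higher by 2 technical spreads, where 51.8% and 11.5% of all genes were. Hif1a, the subunit of HIF-1 that oxygen controls, gave 8.11 and 11.1 in control cells without and with TNF and 8.20 and 8.77 on the cKO-labelled arrays, differences of 0.46 and 0.10. Egln1 and Egln3, prolyl hydroxylases that mark HIF for decay and are themselves HIF targets, gave 0.71 and 0.56 in control cells and 0.15 and 0.32 on the cKO-labelled arrays. Trp53 gave 0.36 and 0.37. Epas1, the HIF-2 subunit known for its role in cartilage, gave 0.08 and 0.03, and Myc gave 0.22 and 0.23. The other regulators, Arnt (0.18), Vhl (0.05) and Txnip (0.17), lay within 2 technical spreads in control cells.

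By distance to the mean log2 profile of the 10 genes, with each profile centred on its mean over the 4 arrays, the 3 nearest of 13240 genes searched were Kdm3a, Gm8709 and Gm6498. Relative to control cells without TNF, the mean profile of the 10 genes was 0.39 in control cells with TNF, 0.04 on the cKO-labelled array without TNF and 0.32 with TNF. Kdm3a, a histone demethylase, gave signals of 4.05 and 5.29 in control cells and 4.23 and 5.05 on the cKO-labelled arrays, at a distance of 0.0216. Gm8709 and Gm6498, transcribed pseudogenes in the annotation, lay at 0.0239 and 0.0291. With 4 arrays, the likeness is a description.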

How the data were processed

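Cy3-labelled RNA from 4 samples was hybridised to 4 Agilent SurePrint G3 mouse arrays of 1 colour, all on 1 slide and read in 1 scan. The authors deposited spot intensities written by Agilent Feature Extraction 10.10.1.1, with background subtracted and trends across each array removed. Their table of values multiplies this intensity by a constant for each array, 1.83 without TNF and 1.77 with TNF in control (Rela fl/fl) cells and 1.79 and 1.78 on the cKO-labelled arrays, with a basis not given in the sources used here, and it served as an alternative.

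From the deposited intensity, each log2 value was lowered by the 75th percentile over the 59305 spots of its array that read transcripts. These percentiles were 590 to 634 intensity units, and 50.9% to 58.1% of probes were well above background. The number of arrays limits the precision. Outlier spots were dropped, repeated spots averaged, and a gene was read from its brightest probe. Symbols came from RefSeq accessions of GRCm38.p6, which matched 20435 of 20809 NM accessions; the files name mm9 as their build, and none of their coordinates were used. A gene was tested when at least 1 array of the comparison was well above background, and a value under background took the lowest signal that passed. The limit was 2-fold, with 2 technical spreads and 1.5-fold as alternatives.

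The 10 genes, the 9 pathway lists and the marker lists were chosen with earlier results of these data known. 1 gene listed at first is not reported here. The text names all 10 genes with all their probes, genes of the other pathway lists and the TNF response list that passed 2-fold, that catalyse a step beside the 10 or that regulate them, and the 3 genes nearest in profile. Eno3, Pfkfb3 and the genes of glycogen and pyruvate dehydrogenase and the single markers were named after their values were seen. Patches are spots with 3 or more neighbours, of 54 within 5 rows and 2 columns, that are bright on 1 array alone. The limits of 2 technical spreads over all and over bright probes (signal of 2 or more), the summary over all 15 probes and the stricter patch rule (6 neighbours) were chosen after seeing the data. Other alternatives were no scaling, quantile and cyclic loess normalization, median centring, normexp background on the median intensity (offset 50), 2 filters, the mean over probes and the second probe. The counting was tested on simulated data. Python 3.11.15, numpy 2.4.6, pandas 2.3.3, matplotlib 3.10.9 and R 4.3.3 with limma 3.58.1 were used.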

Additional observations from a re-analysis of the deposited data

How the results depend on the processing

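No paired analysis was possible because each condition has 1 array. The median TNF difference of the 10 genes in control cells was 0.37 to 0.45 over the settings that measured all 10, and 0.46 and 0.47 with patches left out (8 genes) and at the second brightest probe (4 genes), above 0 for every gene measured in each. On the cKO-labelled arrays it was 0.16 to 0.30 where all 10 were measured and 0.32 at the second probe. Scaling mattered there: without scaling the median of all genes moved from 0.06 to -0.05, Ldha reversed to -0.052 under cyclic loess, Eno1 was at -0.05 under quantile and -0.08 under cyclic loess normalization, and Pfkp at -0.03 without scaling; the cause was not tested. Relative to the median of all genes, the 10 genes stayed higher by 0.12 to 0.29 where all 10 were measured. The genotype difference with TNF had a median of -0.25 at the second brightest probe, which 4 genes have, and was -0.04 in the main setting, -0.10 without scaling and in the authors' value table, -0.12 under quantile and -0.16 under cyclic loess normalization. No gene passed 2-fold. At 1.5-fold the count was 1 for TNF in control cells, and at 2 technical spreads it was 8 there, 6 on the cKO-labelled arrays and 1 for the genotype label without TNF. Without scaling it was 2 on the cKO-labelled arrays, and 3 were lower by the genotype label with TNF, where the main setting has none. By the spread of bright probes the counts of the main setting were 9, 7 and 1, and 3 lower for the genotype label with TNF. Under cyclic loess normalization they were 8, 5 and 2, and 4 lower. The difference between the TNF differences had a median of -0.24 to -0.07. Of 560 values for single genes under other settings, 535 moved by less than the technical spread. Many of these could not move, so the share says little about stability. All 15 probes were well above background, so the 2 filters left every value as it was. The mean over probes could not change a gene with 1 probe. With 1 array per condition, no setting supplies the spread between cultures.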

Other observations

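Of 10 genes of gluconeogenesis and glycogen that were well above background with or without TNF, 7 were above 0 with a median of 0.22, and 4 were higher by 2 technical spreads, as 11.5% of all genes were. These were Gbe1, the branching enzyme (0.59, and 0.22 on the cKO-labelled arrays), Gys1, the glycogen synthase of muscle and most tissues (0.48 and 0.20), Pygl, the liver-type phosphorylase (0.41 and 0.18), and Pgm1, the mutase that links glucose 1-phosphate to glucose 6-phosphate (0.40 and 0.37). Genes of synthesis and of breakdown were thus both among them. Pygb, the brain-type phosphorylase, gave -0.04 and -0.11, Ugp2 gave -0.04 and -0.21 and Pck2 -0.17 and -0.01.

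At the gate from pyruvate to the citrate cycle, 2 of 9 genes were higher by 2 technical spreads in control cells, where 11.5% of all genes were, and none on the cKO-labelled arrays, where 14.0% were. Pdk1, the kinase that switches off pyruvate dehydrogenase, went from a signal of 2.09 to 2.94 in control cells (0.49) and from 2.05 to 2.29 on the cKO-labelled arrays (0.16). Pdp1, a phosphatase that switches it back on, gave 0.34 and -0.12, and its 3 probes ran from 0.34 to 0.40 and from -0.24 to -0.03. The subunits of the enzyme itself, Pdha1 and Pdhb, gave 0.13 and 0.07 in control cells.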
